A study of Mus musculus with 4 samples.

Results

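The endoplasmic reticulum (ER) chaperones and foldases described here are 10 genes, taken by name: Hspa5, Hsp90b1, Calr, Pdia3, Pdia4, Pdia6, Dnajb9, Sdf2l1, Creld2 and Manf. Each of the 10 matched 1 of the 55487 gene identifiers in the count tables, and all 10 passed the filter on low counts, which left 14411 genes. Liver RNA of 4 female FVB mice aged 11 weeks was sequenced, and all 4 mice were kept on standard chow. The 2 PA mice are hypomorphic Pcca-/- animals carrying A138T, and the 2 WT mice are wild type at Pcca. The product of Pcca is the alpha subunit of propionyl-CoA carboxylase, a mitochondrial enzyme that is deficient in propionic acidemia. PolyA RNA was prepared from frozen tissue, and the series describes the replicates as biological. The question here is whether transcripts of the ER folding machinery differed in PA against WT liver, and how far mice of 1 genotype differed from each other.

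Secreted and membrane proteins fold in the ER, where the liver makes most of the proteins of blood plasma. Chaperones of the HSP70 and HSP90 families and the lectin chaperones hold unfolded chains, protein disulfide isomerases form and rearrange disulfide bonds, and co-chaperones set the HSP70 cycle. When unfolded protein accumulates, the ER membrane sensors IRE1, PERK and ATF6 start the unfolded protein response, and the cleaved form of ATF6 and the spliced form of XBP1 raise transcription of chaperone genes. A known DNA element through which this happens is the ER stress response element (ERSE), made of CCAAT, then 9 bases, then CCACG.

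Promoters of the members, from 250 bases before to 50 bases after the transcription start, were read from RefSeq on GRCm38.p6, whose starts can differ from those of the annotation used for gene positions, and 9 of the 10 members had one in the table. Manf had no promoter there, so it was not searched for any motif. For the other members both strands were searched. Only exact matches were counted, so a promoter without a match can still hold an element that differs by a base. A full ERSE was found in 5 of these 9 promoters, those of Hspa5, Hsp90b1, Calr, Pdia6 and Creld2, with 2 in Hsp90b1, against 0.119% of all 32817 promoters in the table. CCAAT alone was found in 9 member promoters and in 37.4% of all promoters, and CCACG alone in 8 member promoters and in 32.8% of all promoters. The cyclic AMP response type motif TGACGTG was found in 1 member promoter, that of Hspa5, and in 2.01% of all promoters. The variant ERSE-II, ATTGG, then 1 base, then CCACG, was found in 0 member promoters and in 0.0366% of all promoters. CCAAT reads as ATTGG on the other strand, and each full element or variant also counts as a match of both parts. A match describes the letters of the window and was not tested as a site of binding.

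The 6 full elements are shown because they are the sequence feature that 5 of the members share. Each is printed with 10 bases on either side, on the strand where CCAAT comes first, and capitals mark CCAAT and CCACG.
Hspa5, chr2:34772015-34772053, plus strand: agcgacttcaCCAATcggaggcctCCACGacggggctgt
Hsp90b1, chr10:86705628-86705666, minus strand: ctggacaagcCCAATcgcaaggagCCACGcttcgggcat
Hsp90b1, chr10:86705523-86705561, plus strand: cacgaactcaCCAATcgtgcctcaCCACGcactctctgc
Calr, chr8:84847065-84847103, plus strand: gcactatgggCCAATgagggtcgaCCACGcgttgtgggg
Pdia6, chr12:17266481-17266519, plus strand: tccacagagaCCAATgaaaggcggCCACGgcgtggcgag
Creld2, chr15:88819510-88819548, minus strand: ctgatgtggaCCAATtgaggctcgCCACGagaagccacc
The element of Hspa5 lies nearest the start, 65 to 47 bases upstream. That of Pdia6 lies 98 to 80 bases upstream, that of Calr 162 to 144 bases upstream and that of Creld2 126 to 108 bases upstream. The 2 elements of Hsp90b1 lie 212 to 194 and 107 to 89 bases upstream, in opposite orientations.

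The whole window of Hspa5, with an element, and that of Dnajb9, with CCAAT and CCACG but no full element, are printed as examples. Dnajb9 was picked because it departs from the other members in the results that follow. Pdia3, Pdia4 and Sdf2l1 also had no full element, yet like most members they were highest in WT replicate 1. A link between the element and transcript levels was not tested.
Hspa5 promoter, chr2:34771840-34772139, plus strand: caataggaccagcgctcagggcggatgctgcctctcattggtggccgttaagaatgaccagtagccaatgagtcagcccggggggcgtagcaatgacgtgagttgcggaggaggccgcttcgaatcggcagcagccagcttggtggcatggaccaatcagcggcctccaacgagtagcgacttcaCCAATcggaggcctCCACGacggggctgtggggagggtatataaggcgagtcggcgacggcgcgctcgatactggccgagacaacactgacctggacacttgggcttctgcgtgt
Dnajb9 promoter, chr12:44210019-44210318, minus strand: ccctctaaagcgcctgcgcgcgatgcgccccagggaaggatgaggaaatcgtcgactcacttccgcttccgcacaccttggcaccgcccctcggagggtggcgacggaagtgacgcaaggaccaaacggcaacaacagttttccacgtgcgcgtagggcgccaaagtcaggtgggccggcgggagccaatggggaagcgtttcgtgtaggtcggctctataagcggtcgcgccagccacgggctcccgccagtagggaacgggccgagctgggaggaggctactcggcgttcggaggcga
In the Hspa5 window capitals mark the full element. The Dnajb9 window holds 1 CCAAT and 2 CCACG, but not in the arrangement of the full element.

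**Figure D1:**
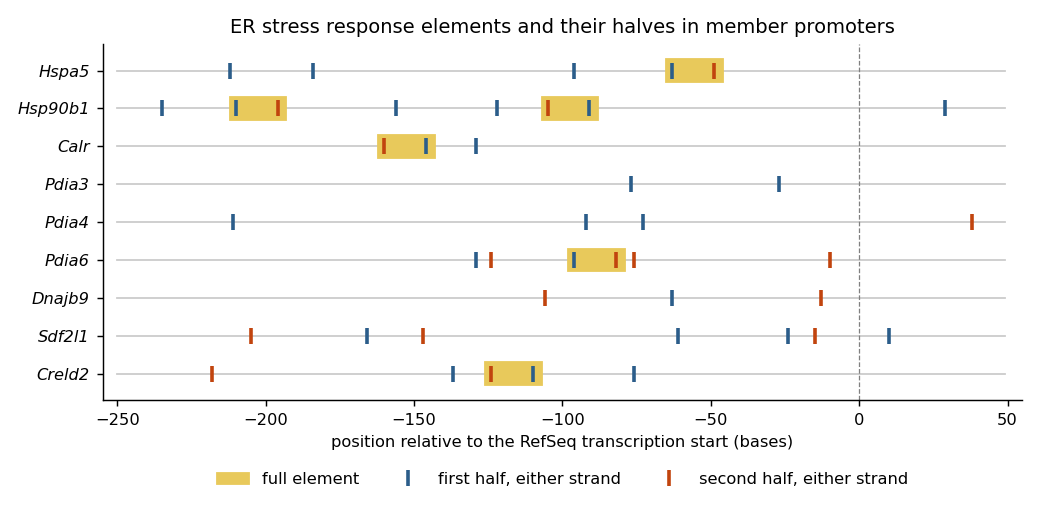
Positions of the full ER stress response element (yellow boxes) and of CCAAT (blue ticks) and CCACG (red ticks), on either strand, in the 9 member promoters with a RefSeq window; the horizontal axis is the distance in bases from the transcription start. Full elements are seen in Hspa5, Hsp90b1, Calr, Pdia6 and Creld2, and all of them lie upstream of the start.

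The libraries held 25990553 and 30110400 gene counts in PA and 29627033 and 25575016 in WT, so counting error was small for every member, the lowest of which had 241 reads in a library. The share of counts from mitochondrial genes was 13.6 and 8.98% in PA replicates 1 and 2, against 6.9 and 7.38% in WT replicates 1 and 2. The multimapping share of reads was 13.5 and 9.19% in PA, against 9.11 and 9.42% in WT, so PA replicate 1, the lower PA library in all 10 members, stood apart in both shares. On RSEM expected counts, which include multimapping reads, the members' median log2 fold change was -0.28 and 0 members were called. Pcca had 34.2 and 47.4 CPM (read counts scaled to library size) in PA, against 60.3 and 58.9 CPM in WT, with a log2 fold change of -0.55 and an adjusted p of 0.398 in edgeR's quasi-likelihood test. Which part of the gene the Pcca-/- allele lacks was not given in the labels, so these counts are a weak check of genotype. The hepatocyte marker Alb was at 120600 and 147200 CPM in PA and 130600 and 149400 CPM in WT. In liver RNA of this kind, fewer cells of a type and less RNA per cell cannot be told apart.

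Across all genes, 117 passed an adjusted p of 0.05 by edgeR, 38 higher and 79 lower in PA, which is 0.812% of the genes tested. Leaving out PA replicate 2 gave 500 genes, leaving out PA replicate 1 gave 303 and leaving out WT replicate 2 gave 221. Of the 10 ER chaperones and foldases, 0 passed. At an unadjusted p under 0.05 the count was also 0 of 10, where 11.8% of all genes passed, and DESeq2 and limma-voom gave 0 of 10 at either threshold. In 0 of 10 members were both PA libraries on the same side of both WT libraries, where 43.2% of all genes had groups that did not overlap. Fitted log2 fold changes were above 0 for 2 members and below 0 for 8, with a median of -0.30, beside 0.00 over all genes tested. The members' median ran from -0.79 without PA replicate 2 to 0.32 without WT replicate 1, so the sign of the group as a whole rested on single mice.

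The soluble chaperones come first. Hspa5 (chromosome 2, 34771970 to 34777547 on GRCm38, as for the other genes) encodes BiP, the ER member of the HSP70 family, which binds unfolded chains and also holds the stress sensors inactive. Hspa5 had 561 and 964 CPM in PA replicates 1 and 2, against 1293 and 553 CPM in WT replicates 1 and 2. WT replicate 1 was highest and WT replicate 2 lowest, and both PA libraries lay between them. Its group means were 762 ± 285 CPM in PA and 923 ± 523 CPM in WT (SD, n = 2 each), and its log2 fold change was -0.28 with a 95% interval of -1.34 to 0.78 (edgeR adjusted p = 0.873). The 2 PA mice differed 1.72-fold and the 2 WT mice 2.34-fold.

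Hsp90b1 (chromosome 10, 86690209 to 86705509) encodes GRP94, the ER form of HSP90. It had 605 and 892 CPM in PA, against 1442 and 880 CPM in WT. PA replicate 2 exceeded WT replicate 2 by a small margin, so the groups overlapped, and PA replicate 1 was lowest. Its log2 fold change of -0.63 ± 0.34 (SE) had an interval of -1.44 to 0.17 and an edgeR adjusted p of 0.538, the smallest among the members. Counts made without regard to strand were 0.746 times the stranded ones for this gene, so its level depends on the strand rule.

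Calr (chromosome 8, 84841850 to 84846934) encodes calreticulin, a lectin chaperone that binds calcium and glycoproteins in the folding cycle. It had 323 and 591 CPM in PA, against 455 and 281 CPM in WT. Here PA replicate 2 was highest and WT replicate 2 lowest. It was 1 of the 2 members with a fold change above 0, at 0.31 (interval -0.56 to 1.19, edgeR adjusted p = 0.804). Without PA replicate 2 that value was -0.19, and without any other single library it was above 0.

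The protein disulfide isomerases of the set are Pdia3, Pdia4 and Pdia6. Pdia3 (ERp57; chromosome 2, 121413775 to 121438687) works with calreticulin and calnexin on glycoproteins, and had 285 and 499 CPM in PA, against 514 and 372 CPM in WT. Pdia4 (ERp72; chromosome 6, 47796141 to 47813430) had 106 and 176 CPM in PA, against 230.0 and 124 CPM in WT. Pdia6 (P5; chromosome 12, 17266545 to 17284770), which also acts on the sensor IRE1, had 216 and 343 CPM in PA, against 477 and 320.1 CPM in WT. All 3 genes gave the same order, with WT replicate 1 highest, then PA replicate 2, WT replicate 2 and PA replicate 1. Their log2 fold changes were -0.18 ± 0.33 for Pdia3, -0.33 ± 0.37 for Pdia4 and -0.51 ± 0.32 for Pdia6 (SE), with edgeR adjusted p of 0.894, 0.791 and 0.604. The ratio of PA replicate 2 to PA replicate 1 was 1.75 for Pdia3, 1.66 for Pdia4 and 1.59 for Pdia6, and that of WT replicate 1 to WT replicate 2 was 1.38, 1.85 and 1.49 for the same genes.

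Dnajb9, Sdf2l1, Creld2 and Manf encode smaller partners of BiP and secreted or retained ER proteins. Dnajb9 (ERdj4; chromosome 12, 44205559 to 44210326) is a J-domain co-chaperone that brings BiP to IRE1 and to misfolded chains, and a known target of spliced XBP1. It had 41.4 and 54.4 CPM in PA, against 40.8 and 54.3 CPM in WT. Each genotype thus had 1 mouse near 41 CPM and 1 near 54 CPM, and the means were 47.9 ± 9.19 CPM in PA and 47.5 ± 9.59 CPM in WT (SD, n = 2 each). Its log2 fold change was 0.01 with an interval of -0.55 to 0.57 (edgeR adjusted p = 0.991), the narrowest interval of the 10, and its sign turned to -0.03 on library sizes alone. Dnajb9 was the only member in which WT replicate 2 exceeded WT replicate 1.

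Sdf2l1 (chromosome 16, 17130138 to 17132383) encodes a partner of J-domain proteins in the BiP cycle. It had 12.3 and 23.4 CPM in PA, against 44.1 and 9.46 CPM in WT. Creld2 (chromosome 15, 88819646 to 88826683), an ER-resident protein with disulfide isomerase activity, had 13.9 and 34.0 CPM in PA, against 63.8 and 12.6 CPM in WT. Manf (chromosome 9, 106838312 to 106891979), a secreted neurotrophic factor family member that binds BiP in the ER, had 54.3 and 109.6 CPM in PA, against 151.7 and 42.5 CPM in WT. In all 3 the WT libraries held both the highest and the lowest value, with the PA libraries between them.

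The 2 PA mice differed 1.90-fold in Sdf2l1, 2.46-fold in Creld2 and 2.02-fold in Manf, and the 2 WT mice differed 4.66-fold, 5.08-fold and 3.57-fold in the same genes. The fitted log2 fold changes of these 3 genes were -0.59 ± 0.64, -0.67 ± 0.70 and -0.24 ± 0.57 (SE), with edgeR adjusted p of 0.784, 0.775 and 0.919. For Creld2 the interval ran from -2.34 to 0.99, so neither a change of a few fold nor a difference of 0 lay outside it. Leaving out 1 mouse at a time moved these values over the widest ranges in the set, from -1.29 to 0.91 for Sdf2l1, -1.47 to 0.93 for Creld2 and -0.88 to 0.94 for Manf.

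**Figure D2:**
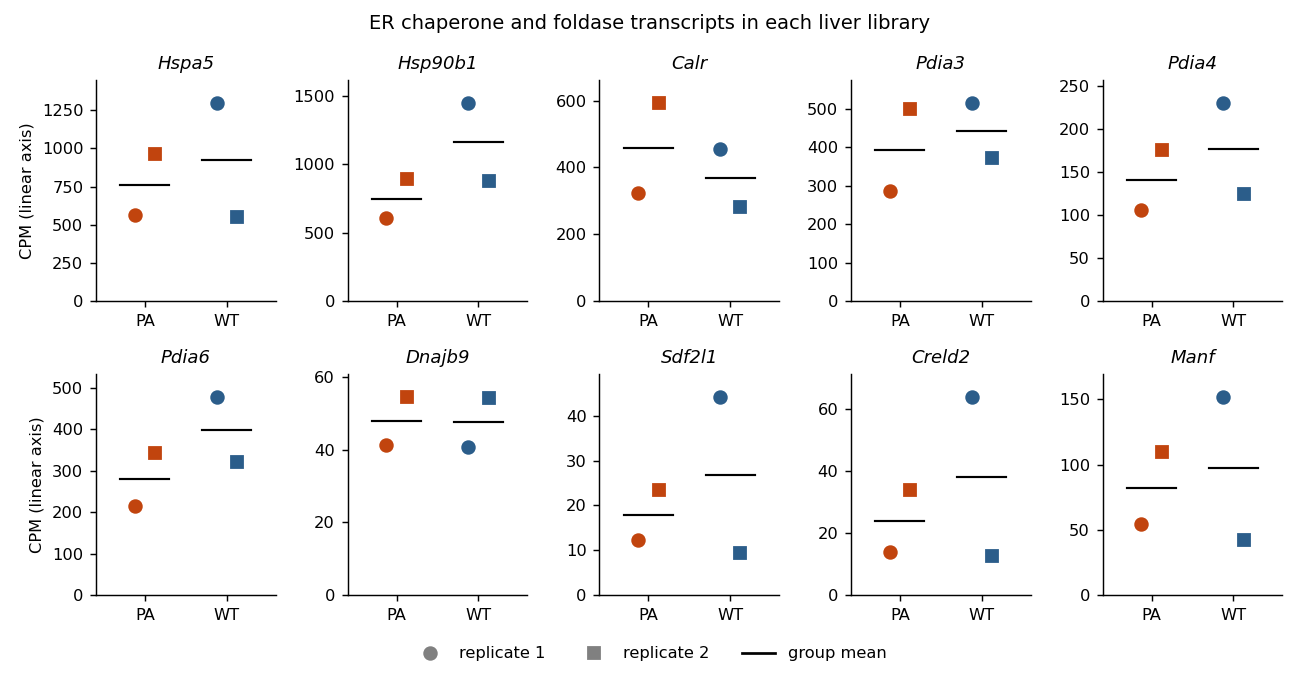
CPM (linear axes from 0, scaled separately for each gene) of the 10 members in each library, PA in orange-red and WT in blue, with circles for replicate 1, squares for replicate 2 and lines for group means. In 8 members WT replicate 1 is the highest point, and in no member do the PA and WT points separate.

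**Figure D3:**
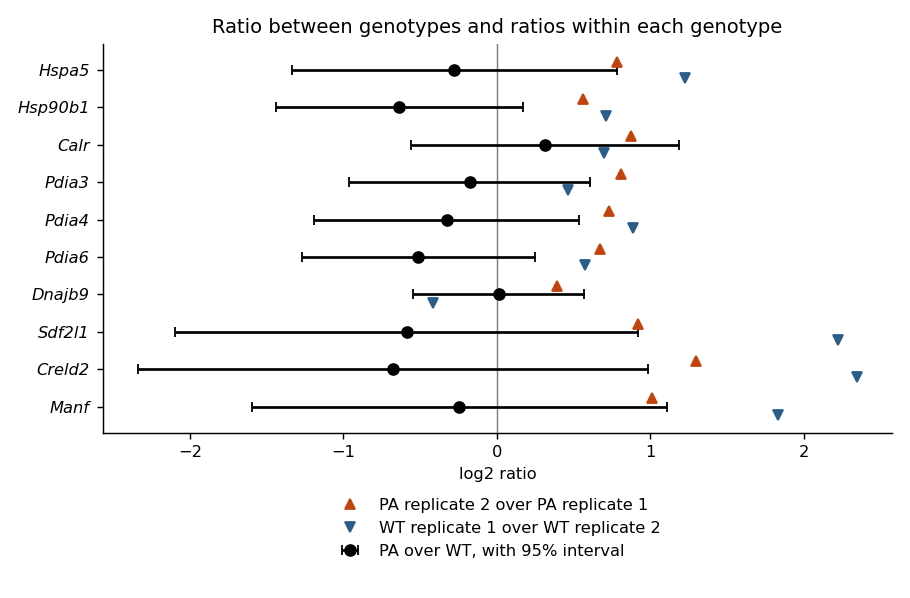
Log2 ratios of the 10 members: black points are the fitted PA over WT values with 95% intervals, orange-red triangles the ratio of PA replicate 2 to PA replicate 1, and blue triangles the ratio of WT replicate 1 to WT replicate 2. Every interval includes 0, and the within-genotype ratios are above 0 for every member except for Dnajb9 in WT.

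Levels of different genes were compared in TPM, the unit of the RSEM tables that is scaled by transcript length. By mean TPM over the 4 libraries the order was Hsp90b1 (440.3), Hspa5 (427), Calr (259.7), Pdia6 (185), Pdia3 (168), Manf (140.1), Pdia4 (78.5), Creld2 (26.5), Sdf2l1 (22.8) and Dnajb9 (21.8). Hsp90b1 and Hspa5 were not separated, since each was the higher in 2 of 4 libraries. Hspa5 exceeded Calr, Calr exceeded Pdia6, Manf exceeded Pdia4 and Pdia4 exceeded Creld2 in 4 of 4 libraries. The last 3 genes were not ordered, and Sdf2l1 exceeded Dnajb9 in 1 of 4 libraries, WT replicate 1.

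In 9 of the 10 genes the mice of each genotype differed more from each other than the genotypes did. The direction in which those differences are described, PA replicate 2 over PA replicate 1 and WT replicate 1 over WT replicate 2, was chosen after the values were seen, and no test is given. PA replicate 2 exceeded PA replicate 1 in 10 of 10 members, and WT replicate 1 exceeded WT replicate 2 in 9 of 10. Both held in 9 members, or 90.0%, beside 26.8% of all genes tested. Median log2 ratios of the members were 0.79 within PA and 0.80 within WT, where the median size of such differences over all genes, whichever way they ran, was 0.345 within PA and 0.221 within WT. These medians were 0.80 within PA and 0.79 within WT on DESeq2's size factors, and 0.80 and 0.86 on library sizes alone.

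A ratio of at least 2 between PA replicate 2 and PA replicate 1 was reached by 2 members, Creld2 and Manf, and by 4.32% of all genes. Between WT replicate 1 and WT replicate 2 it was reached by 4 members, Hspa5, Sdf2l1, Creld2 and Manf, and by 3.05% of all genes. On the log2 scale the gap within each genotype was larger than the gap between the genotypes in 9 members, beside 34.8% of all genes. The exception was Hsp90b1, whose within-PA ratio of 0.56 was smaller than its fold change. In 4 members the order of the libraries, high to low, was WT replicate 1, PA replicate 2, PA replicate 1, WT replicate 2, and in 4 others the last pair changed places. Calr and Dnajb9 each had an order of their own.

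Summed over the 10 genes, CPM came to 2217 and 3686 in PA replicates 1 and 2, against 4712 and 2649 in WT replicates 1 and 2. This was 0.217 and 0.364% of all gene counts in PA, against 0.488 and 0.264% in WT. The gene-wise biological coefficient of variation estimated by edgeR had a median of 0.278 over the members and 0.206 over all genes.

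**Figure D4:**
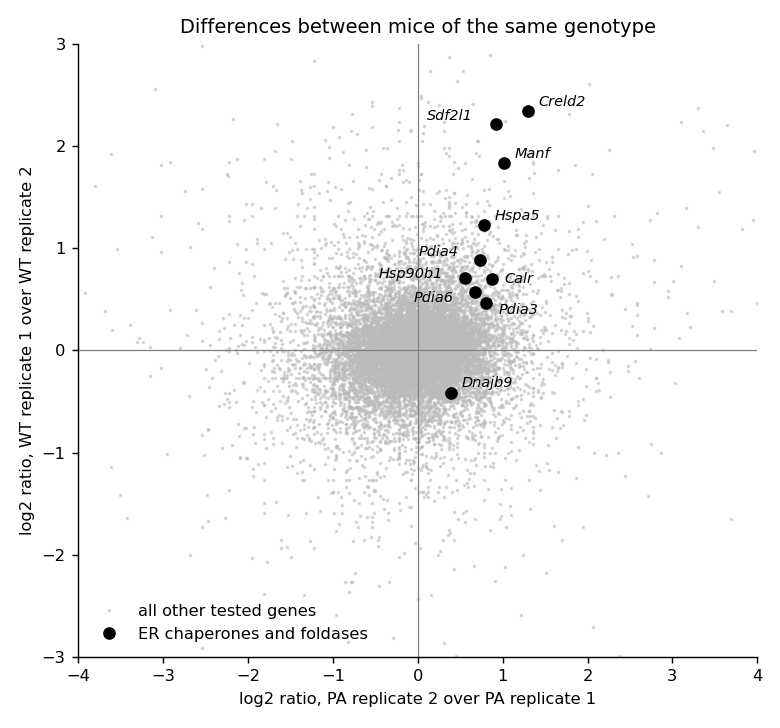
Log2 ratio of PA replicate 2 to PA replicate 1 (horizontal) against log2 ratio of WT replicate 1 to WT replicate 2 (vertical) for 14379 tested genes with reads in all 4 libraries (grey, 34 of them beyond the axes) and for the 10 members (black). Of the members, 9 lie in the upper right part, with Creld2, Sdf2l1 and Manf farthest out, and Dnajb9 lies below the horizontal line.

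Within-WT log2 ratios of members with a full ERSE overlapped those of the searched members without one. With an element they ran from 0.58 for Pdia6 to 2.34 for Creld2. Without one in the window they ran from -0.41 for Dnajb9 to 2.22 for Sdf2l1. The lowest within WT, those of Dnajb9 and then Pdia3 at 0.46, were thus of members without an element. Dnajb9 was also the lowest within PA, at 0.39. A link between the element and these ratios was not tested.

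The rest of the ER folding machinery was taken from wider lists, of which the number of tested genes called by edgeR is given. Of 41 other ER chaperones and foldases, 39 were tested, 16 higher and 23 lower in fitted value, and 0 were called. The median log2 fold change was -0.13, and 19 of the 39 were higher in both PA replicate 2 and WT replicate 1. Over all genes tested this share was 26.8%, which applies also to the counts of the lists below. The most abundant were Ppib, a prolyl isomerase, at 333 and 317 CPM in PA, against 360.5 and 297 CPM in WT, and P4hb, the canonical protein disulfide isomerase, at 1015 and 1485 CPM in PA, against 1152 and 998 CPM in WT. The smallest p-values belonged to Ero1b, an oxidase that recharges the isomerases, at -1.09 on the log2 scale (adjusted p = 0.211 by edgeR), to Cdnf, the paralog of Manf, with 1.43 (adjusted p = 0.222), and to Uggt2, a glycoprotein folding sensor, with 0.82 (adjusted p = 0.323). Hyou1, an HSP70-like exchange factor for BiP named after its values were seen, had 51.4 and 132 CPM in PA, against 189.7 and 57.1 CPM in WT, again highest in WT replicate 1 and next in PA replicate 2.

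Of 12 sensors and transcription factors of the unfolded protein response, 11 were tested and 0 called, with a median log2 fold change of -0.09, and 3 of 11 were higher in both PA replicate 2 and WT replicate 1. Xbp1, whose spliced product drives chaperone genes, had 183 and 231 CPM in PA, against 303 and 275 CPM in WT (log2 fold change -0.48, edgeR adjusted p = 0.496). Splicing of Xbp1 was not measured, since the tables count whole genes. Ern1, the gene of IRE1, had a log2 fold change of -0.44 (adjusted p = 0.493) and Creb3l2 of -0.52 (adjusted p = 0.419). Creb3l3, a liver ER membrane transcription factor, had 258 and 171 CPM in PA, against 229 and 196 CPM in WT, and thus ran against the chaperones within PA.

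Of 16 genes of the PERK and ATF4 arm, which answers stress by limiting translation and raising amino acid genes, 15 were tested, 13 higher and 2 lower in fitted value. The median log2 fold change was 0.41, and 1 gene, Vldlr, a lipoprotein receptor, was called. Vldlr had 21.9 and 33.6 CPM in PA, against 6.55 and 8.48 CPM in WT, which gave a log2 fold change of 1.89 (adjusted p = 0.0385 by edgeR). Without WT replicate 1 its adjusted p was 0.0539. Asns, asparagine synthetase, had 3.61 and 1.11 CPM in PA, against 0.130 and 0.236 CPM in WT, and missed the threshold (3.67, adjusted p = 0.0899), as did Gdf15 (1.74, adjusted p = 0.175). The most abundant, Atf5 and Ppp1r15b, had values of 0.09 and 0.11. Of the 15, 2 were higher in both PA replicate 2 and WT replicate 1. Immediate early genes, 10 of 11 higher in fitted value and 0 called, summed to 159.5 and 95.6 CPM in PA, against 92.2 and 68.9 CPM in WT, and their part in the values of this arm was not tested.

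ER-associated degradation, which returns misfolded chains to the cytosol, had 22 genes tested and 0 called, 7 higher and 15 lower in fitted value, with a median of -0.05. Herpud1, a scaffold of this pathway, had 309 and 245 CPM in PA, against 165 and 200.2 CPM in WT (log2 fold change 0.60, edgeR adjusted p = 0.398). Derl3 had a value of -1.11 (adjusted p = 0.246), Derl2 of -0.40 (adjusted p = 0.497) and Selenok of -0.17 (adjusted p = 0.839). Groups did not overlap for Herpud1, higher in PA, nor for Derl3 and Derl2, lower in PA. In the list this held for 3 genes higher and 7 lower in PA, beside 43.2% of all genes in either direction. Of the 22 genes, 12 were higher in both PA replicate 2 and WT replicate 1.

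Genes that carry chains into the ER and modify them there gave 0 calls. Of 23 genes of translocation and the signal peptidase, 12 were higher and 11 lower, with a median log2 fold change of 0.02 and 0 called. In WT replicate 1, 22 of the 23 were higher than in WT replicate 2, and 12 were higher in both PA replicate 2 and WT replicate 1. Sec11c had -0.44, Sec61g -0.40, Ssr1 0.39, Ssr4 -0.13 and Spcs1 -0.20, with edgeR adjusted p from 0.497 to 0.916. Of 11 oligosaccharyltransferase genes, which attach N-glycans, 6 were higher and 5 lower with 0 called, and 9 of 11 were higher in both PA replicate 2 and WT replicate 1. Tusc3 had -0.69, Dad1 0.48, Tmem258 -0.32 and Rpn1 -0.06, with adjusted p from 0.318 to 0.960. Of 17 tested genes of ER export and cargo retrieval, 14 were higher and 3 lower, with a median of 0.17, 0 called and 13 higher in both of those libraries. Sec24a, Sar1b, Surf4 and Tmed2 had 0.35, 0.28, 0.30 and 0.01.

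Most chaperones outside the ER had ratios of the same sign within the genotypes. Of 13 tested genes of cytosolic and mitochondrial chaperones, 5 were higher and 8 lower in fitted value, 0 were called, and 10 were higher in both PA replicate 2 and WT replicate 1. Their median log2 ratios were 0.65 within PA and 0.40 within WT, beside 0.79 and 0.80 for the ER members. Hspa8, the constitutive cytosolic HSP70, had 585 and 847 CPM in PA, against 1293 and 763 CPM in WT (log2 fold change -0.52, edgeR adjusted p = 0.622). Hsp90aa1 and Hsph1, stress-inducible cytosolic chaperones named after their values were seen, followed the same pattern. Hsp90aa1 had 213 and 375 CPM in PA, against 583 and 212 CPM in WT, and Hsph1 had 16.8 and 67.5 CPM in PA, against 81.0 and 30.4 CPM in WT. Hspa9 of the mitochondrion did not, with a within-WT log2 ratio of -0.19. Hspe1, also of the mitochondrion, was above 0 within both genotypes, but by little, at 0.31 within PA and 0.04 within WT. Hspa9 had a log2 fold change of 0.55 and Dnajb1 of -0.51 (adjusted p = 0.446 and 0.497).

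**Figure D5:**
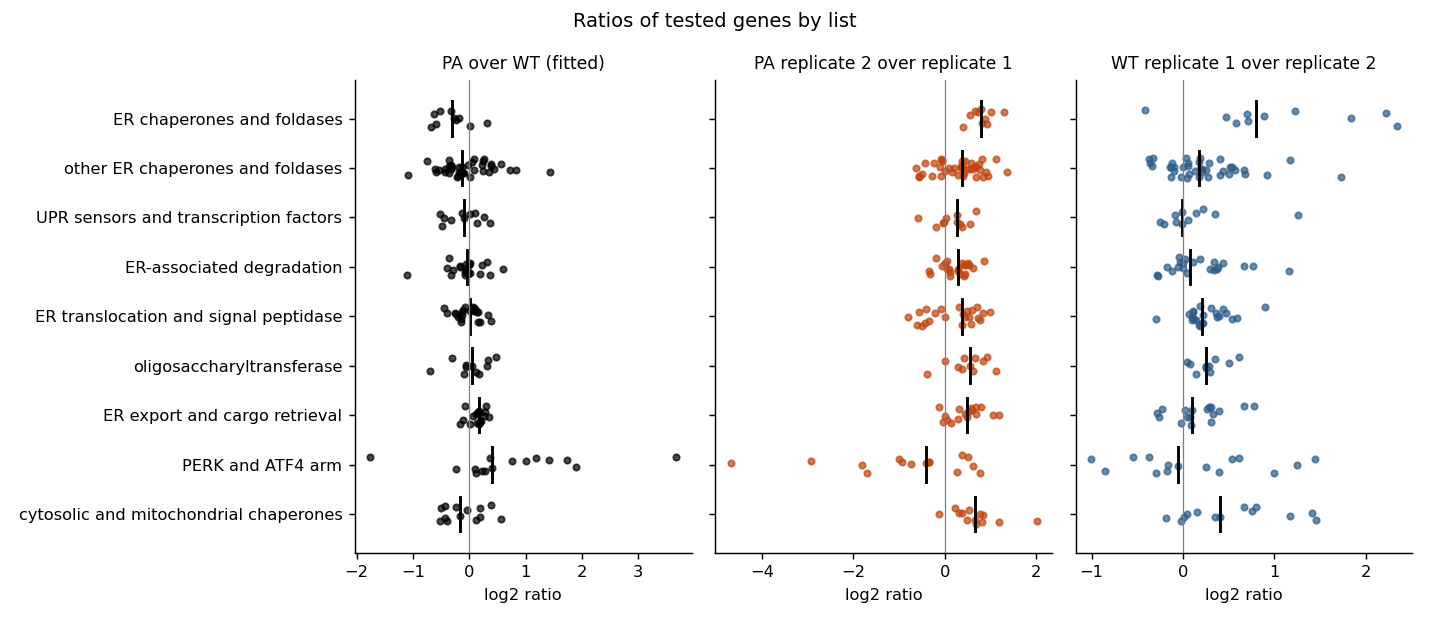
Log2 ratios of the tested genes of 9 lists, 1 point a gene and a black bar at the median, for PA over WT (left), PA replicate 2 over PA replicate 1 (middle) and WT replicate 1 over WT replicate 2 (right). The ER chaperones and foldases have the largest medians within both genotypes, 0.79 and 0.80, and the PERK and ATF4 arm lies below 0 within PA.

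Other secretory cells, rich in the same chaperones, could be present in a piece of liver, and their markers were read beside the members. Of 10 pancreatic acinar markers, 2 passed the filter, and Ctrb1, Pnlip, Cpa1, Cpb1 and Amy2a5 were at 0 in all 4 libraries. The acinar sum, nearly all from Cela1, was 12.2 and 7.98 CPM in PA, against 29.7 and 17.2 CPM in WT. Plasma cell and B cell markers summed to 7.70 and 8.48 CPM in PA, against 19.4 and 15.6 CPM in WT, with 6 of 8 tested and 0 called. Of the 6, 5 were lower in PA with groups that did not overlap. The most abundant, Igkc, Ighm and Jchain, had reads in all 4 libraries. Igkc had 3.02 and 2.59 CPM in PA, against 3.75 and 3.57 CPM in WT. Ighm had a log2 fold change of -1.902 (adjusted p = 0.121 by edgeR). Mzb1 was at 0 in both PA libraries and in WT replicate 1. Kupffer cell markers summed to 328 and 451 CPM in PA, against 710 and 617 CPM in WT, with 8 of 9 lower in fitted value and 0 called. Of these 9, 7 were higher in both PA replicate 2 and WT replicate 1, as 9 of the 10 members were, beside 26.8% of all genes.

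Red blood cell markers summed to 11.9 and 16.8 CPM in PA, against 88.5 and 47.5 CPM in WT. All 5 were lower in fitted value, and 2, Hbb-bs and Hbb-bt, were called by edgeR, at -2.83 and -2.98 on the log2 scale. All 5 were also higher in PA replicate 2 and in WT replicate 1 than in the other library of the genotype, with median log2 ratios of 0.74 within PA and 0.91 within WT. Unlike the chaperones, all 5 had groups that did not overlap, beside 43.2% of all genes. Hba-a2, at -2.47 on the log2 scale, missed the threshold (adjusted p = 0.123 by edgeR). The 6 hepatocyte markers, Alb, Serpina1c and Ttr the most abundant, had median log2 ratios of 0.22 within PA and -0.08 within WT. The part of blood content and of Kupffer cells in the members' values was not tested. With the mitochondrially encoded genes left out, the members' median log2 fold change was -0.29 and 0 members were called. Stellate cell, cholangiocyte and endothelial markers, with 7, 5 and 6 tested, had 0 called. Their sums were 389.5, 29.8 and 169 CPM in PA replicate 1 and 352, 32.5 and 170.4 CPM in PA replicate 2, against 353, 34.3 and 214 CPM in WT replicate 1 and 363, 48.2 and 196 CPM in WT replicate 2. The most abundant gene of each was Dcn, Spp1 and Clec4g, in that order. Spp1 made up most of the cholangiocyte sum and had a log2 fold change of -0.57. Of the 5 cholangiocyte markers 4 were higher in fitted value, with a median of 0.65, so the sum does not describe the list. Of the 6 endothelial markers 2 were higher and 4 lower, with a median of -0.05, and Clec4g was at -0.58.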

How the data were processed

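Poly(A) RNA of 4 mouse livers was measured, with group and replicate number taken from the sample titles. The authors deposited, per library, raw read counts per gene from STAR in 3 strand columns, and, per the file headers, expected counts and TPM per gene from RSEM. Per the submitters' processing notes the tools were STAR 2.7.6a and RSEM 1.3.3 on GRCm38. The release of the gene annotation is not given in the sources used here. Reads with several matches are not in the STAR counts.

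The opposite-strand column held 96.96 to 97.08% of the stranded counts in each library and was used. Summary lines that name no gene held 34.3 and 28.1% of reads in PA replicates 1 and 2, against 29.6 and 31.1% in WT replicates 1 and 2, and were left out. Of 55487 identifiers, 55227 matched GENCODE M21, which gave symbols and GRCm38 positions. Counts were tested with edgeR 4.0.16 (quasi-likelihood, TMM, default filterByExpr, genotype as the only term) in R 4.3.3, adjusted over all 14411 genes by the Benjamini-Hochberg method at 0.05. CPM are on TMM-scaled library sizes. Standard errors are the fold change over the square root of F, and intervals are at the 95% level. Ratios within a genotype are of CPM. Alternatives used DESeq2 1.42.0, limma-voom (limma 3.58.1), other scalings, filters and columns, RSEM expected counts rounded to whole numbers, a replicate block, no mitochondrial genes, and each library left out. The code was tested on simulated data with 2 libraries a group. Genes changed by a log2 fold change of 1 were recovered in 26.1% of cases and those changed by 2 in 92.3%, with 4.53% of calls false. A member changed by a log2 fold change near 1 could thus be missed. The simulated spread followed edgeR's trend with expression level, not the spread of each gene. The members' biological coefficient of variation ran from 0.194 for Dnajb9 to 0.482 for Creld2, with a median of 0.278, against 0.206 over all genes. The recovery rates, also that for a change of 2, were therefore not measured for members as variable as Creld2. With 2 mice a group no permutation test was run. The p-values set the difference between genotypes against the spread between these samples, which edgeR estimates in part from all genes.

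The members and lists were chosen with earlier results of these data known. All 10 members are named, with Pcca and Pccb as the label check. For each wider ER list every called gene, the 3 with the smallest p and the 2 with the highest mean TPM are named, and for each cell type list genes among the 3 with the highest mean TPM and its defining markers at 0. Pccb had 149 and 139 CPM in PA, against 136 and 132 CPM in WT. No 2 libraries of a group were the same within sampling noise (chi-square per degree of freedom 135 for PA and 46.3 for WT).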

Additional observations from a re-analysis of the deposited data

How the results depend on the processing

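The count of members called was 0 under every alternative listed here, whether by edgeR, DESeq2 or limma-voom. The smallest adjusted p of a member in any of them was 0.108, for Creld2 by edgeR with no filter on low counts. The genes called in all, 117 as reported, numbered 442 with DESeq2, 902 when low counts were not filtered and 155 to 500 with 1 library left out. The members' median log2 fold change of -0.30 ranged from -0.79 to 0.32 with 1 library left out. Of 40 member values from leaving out a library, 12 changed sign. The ranges were -0.75 to 0.46 for Hspa5, -0.94 to -0.24 for Hsp90b1, -0.19 to 0.70 for Calr, -0.64 to 0.18 for Pdia3, -0.74 to 0.18 for Pdia4, -0.89 to -0.20 for Pdia6, -0.20 to 0.24 for Dnajb9, -1.29 to 0.91 for Sdf2l1, -1.47 to 0.93 for Creld2 and -0.88 to 0.94 for Manf. With 1 library left, its group was assumed to vary like the other. Of 100 other member values, 2 changed sign, both of Dnajb9, to -0.029 on library sizes alone and to -0.0017 with no filter. The cause was not tested. The replicate numbers do not pair the mice by the labels, and same-numbered libraries had a correlation of deviations of -0.0907. With a replicate block 318 genes and 0 members were called, and the members' median was -0.25. Read depth was not varied. The call of Hbb-bt was lost with limma-voom (adjusted p = 0.0524), and that of Vldlr without WT replicate 1.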

Other observations

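A full ER stress response element was also found in promoters of 32 other genes, of which 14 passed the filter on low counts, some of them on the wider ER lists. Of these 14, 12 were higher both in PA replicate 2 than in PA replicate 1 and in WT replicate 1 than in WT replicate 2, beside 26.8% of all genes, and 0 were called between genotypes by edgeR, with 4 of 14 at an unadjusted p under 0.05, beside 11.8% of all genes. Their median log2 ratios were 0.73 within PA and 0.32 within WT, beside 0.00 within each genotype over all genes. Syvn1, the ubiquitin ligase HRD1 of ER-associated degradation, had 18.4 and 33.2 CPM in PA, against 43.5 and 19.4 CPM in WT. Alg12, a mannosyltransferase of N-glycan assembly, had 4.04 and 6.93 CPM in PA, against 6.68 and 3.30 CPM in WT. Acacb, an acetyl-CoA carboxylase with no chaperone role, had 35.6 and 205 CPM in PA, against 96.4 and 81.7 CPM in WT. These 3 genes were named after their values were seen, and the pattern is given as a description.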
